A study of Mus musculus with 17 samples.

Results

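Induced pluripotent stem (iPS) cell lines were set against embryonic stem cell (ESC) lines by RNA-seq. The comparison held all 4 samples that carried either label, 2 iPS lines and 2 ESC lines, of 17 samples in the series. Both iPS lines (iPS.1 and iPS.2, 129mix) came from fibroblasts of E13.5 embryos, of a cross between tetO-4F2A and H3.3B-HA mice, reprogrammed with 2 µg/ml doxycycline, and their colonies were picked by hand for ESC morphology. ESC.1 carried an Oct4-GFP reporter and ESC.2 was 129mix, so one ESC line shared the labelled background of the iPS lines and the other did not. The remaining reference samples used here were 6 multipotent adult spermatogonial-derived stem cell (MASC) lines, obtained from spermatogonial stem cells (2 Oct4-GFP, 2 129mix and 2 Gt(ROSA26)Sor-lacZ), and 1 sample of 129mix mouse embryonic fibroblasts (MEF) from E13.5 H3.3B-HA embryos, the kind of cell the iPS lines were made from. ESC, iPS and MASC lines all grew on MEF feeder cells with serum replacement and leukaemia inhibitory factor and were collected within 20 passages. Each line is a single culture and stands as 1 replicate. The p-values given here therefore measure the spread between lines and not between independent derivations of one line.

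ESC come from the inner cell mass of the blastocyst and keep themselves pluripotent through a network of transcription factors around Oct4 (Pou5f1), Sox2 and Nanog. In iPS cells the same network is switched on in a somatic cell by a few introduced factors, while the genes of the starting cell are silenced. Imprinted genes, which are read from only one parental copy, keep a methylation mark of their own through this process, and the Dlk1-Dio3 region on mouse chromosome 12 is the imprinted region best known for being silenced in some mouse iPS lines. The maternal copy of that region gives a long chain of noncoding RNAs (Meg3, Rian, Mirg) with small nucleolar RNAs and microRNAs inside it, and the paternal copy gives the protein genes Dlk1, Rtl1 and Dio3.

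The values are FPKM, fragments per kilobase of transcript with the upper-quartile and GC normalization of Cufflinks, for 32661 RefSeq transcripts of 23891 gene symbols. Between 14639 and 15217 transcripts reached 1 FPKM in each of the 4 lines. The coverage behind a value of 1 FPKM was 2.31 and 2.21 reads per base in the ESC lines and 3.23 and 2.81 in the iPS lines. A value of 1 FPKM thus stood for more reads in the iPS lines, and sequencing depth and normalization both enter this coverage. Differences are iPS minus ESC lines on the log2(FPKM + 1) scale and understate the change of transcripts with low values. A transcript was called higher or lower where the 2 lines of one group lay above both lines of the other, the difference was at least 1, and limma's test over the 10 pluripotent lines gave an adjusted p under 0.05 over all transcripts.

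iPS and ESC lines were close to each other. Pearson's r over all transcripts was 0.960 between the ESC lines and 0.976 between the iPS lines, and lay from 0.954 to 0.959 across the groups. The pair of ESC lines was thus hardly more alike than an ESC and an iPS line were. These r are descriptions over transcripts that share libraries. Of the 12827 symbols whose main transcript (the one with the highest mean over the 10 lines) had a mean of at least 1 FPKM in either group, 92.2% differed by less than 1 on the log2 scale. Of all transcripts, 37 were called higher and 37 lower in iPS lines, which is 0.113% of those tested in each direction. A further criterion without the test, no overlap and a difference of at least 1, took in 577 transcripts higher in iPS lines (1.77%) and 630 lower (1.93%). With 2 lines a group, an exact permutation test over lines alone cannot go below p = 0.333, and the calls rest on a spread estimated over all 10 lines. Calls were fewer once the transcripts of a gene were added up: 19 symbols had a higher summed FPKM in iPS lines (0.0795%) and 21 a lower one (0.0879%).

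None of the 4 factors carried by the cassette differed between the groups beyond the spread of the lines. Pou5f1 (Oct4, NM_013633), the transcription factor without which pluripotent cells do not form, was at 874 and 755 FPKM in ESC.1 and ESC.2 and at 998 and 751 FPKM in iPS.1 and iPS.2. Its difference was 0.09 (SE 0.19, limma adjusted p = 1), and the MEF sample had 3.74 FPKM. Sox2 (NM_011443), its partner on DNA, was at 162 and 126 FPKM in ESC lines and at 196 and 141 FPKM in iPS lines, a difference of 0.22 (SE 0.21, limma adjusted p = 0.843). The lines of the groups overlap for both. Klf4 (NM_010637) was at 120 and 39.9 FPKM in ESC lines and at 60.9 and 62.4 FPKM in iPS lines, and Myc (NM_001177352) at 6.00 and 28.3 FPKM against 6.35 and 10.5 FPKM. For these the ESC lines lay on either side of the iPS lines. Reads from the doxycycline-driven cassette and from the endogenous genes cannot be told apart in these values.

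All 33 genes of the pluripotency network list were expressed in these lines, 1 was called lower and none higher in iPS lines, and the list's median difference was -0.17 against 0.00 over all expressed symbols. The called gene was Trim71 (NM_001042503), an RNA-binding protein targeted by let-7. It was at 32.3 and 25.9 FPKM in ESC lines and at 13.2 FPKM in each iPS line, below both ESC lines and below all 6 MASC lines (16.0 to 22.7 FPKM). Its difference was -1.07 (SE 0.17, limma adjusted p = 0.0412). The call was kept in 6 of 22 alternative settings, with a limma adjusted p from 0.0245 to 0.252. Among symbols, 0.0963% were called lower and 0.0795% higher by their main transcript.

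Nanog (NM_028016), which guards against differentiation, was at 99.5 and 99.4 FPKM in ESC lines and at 153 and 174 FPKM in iPS lines. Both iPS lines lay above both ESC lines and above the MASC lines (49.3 to 108 FPKM), but the difference of 0.71 (SE 0.32) did not pass limma's test (adjusted p = 0.461). Zfp42 (Rex1), a marker of naive cells, was at 36.2 and 228 FPKM in ESC lines and at 386 and 292 FPKM in iPS lines. The ESC lines here differed more from each other than ESC.2 did from the iPS lines, and the difference of 1.87 (SE 0.74) had a limma adjusted p of 0.373. Dppa3 (Stella), a maternal and germline factor, showed the same uneven pair, with 63.8 and 16.5 FPKM in ESC lines and 81.8 and 91.4 FPKM in iPS lines. Prdm14, a repressor of differentiation genes, was at 8.58 and 8.02 FPKM against 14.5 and 9.50 FPKM. Esrrb (120 and 105 FPKM against 126 and 105 FPKM) and Tbx3 (21.7 and 12.6 FPKM against 13.4 and 17.2 FPKM) overlapped between the groups.

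Besides Trim71, 3 network genes had both iPS lines below both ESC lines by a difference of at least 1 without passing the test. Klf5, a Krüppel-like factor of the inner cell mass, was at 85.9 and 113 FPKM in ESC lines and at 39.5 and 41.6 FPKM in iPS lines. Sall4, a zinc finger factor bound to Oct4 and Nanog, was at 90.0 and 61.0 FPKM against 35.8 and 31.6 FPKM. Nr0b1 (Dax1), a nuclear receptor that lies on the X chromosome, was at 78.6 and 85.6 FPKM against 44.9 and 32.3 FPKM. The limma adjusted p was 0.117 for Klf5, 0.087 for Sall4 and 0.389 for Nr0b1. These and Zfp42 and Dppa3 were picked out by the lack of overlap, which 1.51% of symbols showed upwards and 1.79% downwards by this measure. Here and below these shares are over all 23891 symbols, of which 12827 had a mean of at least 1 FPKM in either group. Among expressed symbols the shares are larger.

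**Figure D1:**
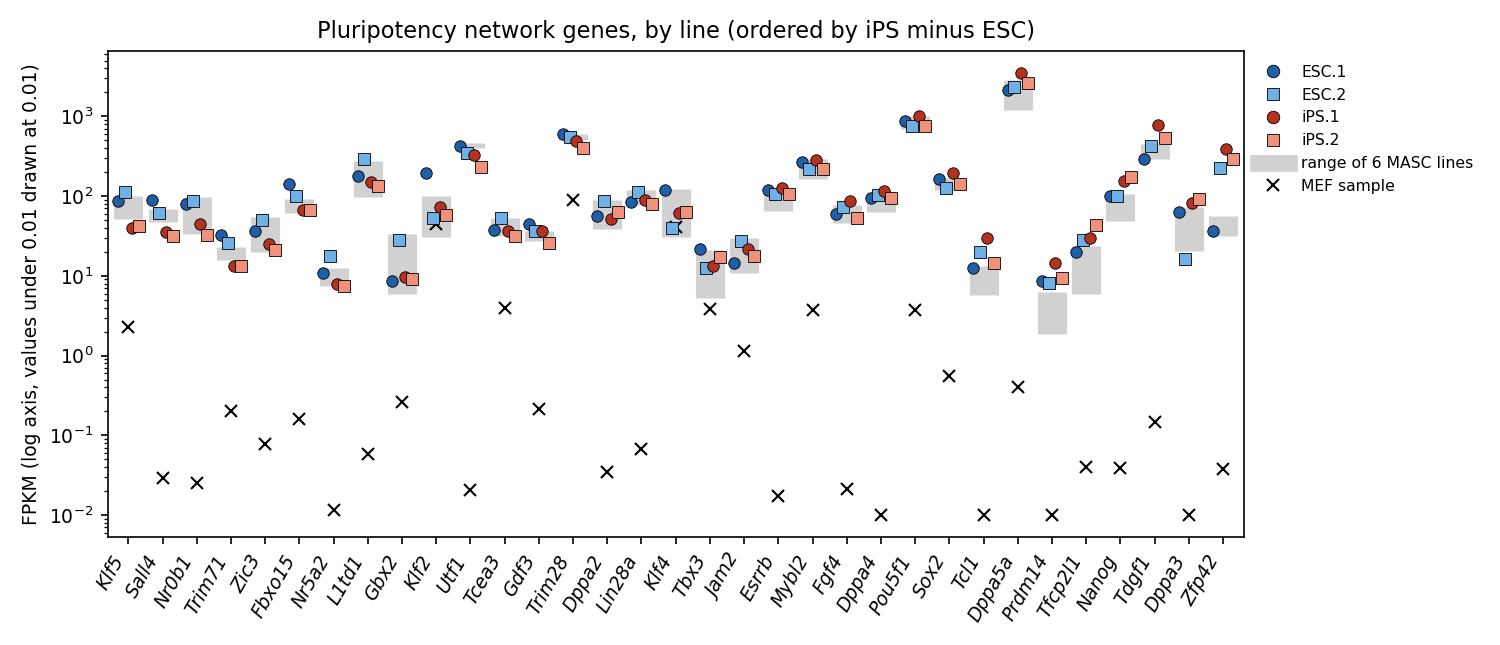
FPKM of the 33 pluripotency network genes on a log axis, with 1 point per ESC and iPS line, a grey bar for the range of the 6 MASC lines and a cross for the MEF sample; genes are ordered by the difference between iPS and ESC lines. Klf5, Sall4, Nr0b1 and Trim71 have both iPS points under both ESC points at the left, Dppa3 and Zfp42 have them above at the right, and Pou5f1, Sox2 and Esrrb overlap in between.

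Genes high in the MEF sample were chosen from the MEF and MASC samples alone, so that neither group compared took part in the choice. There were 290 symbols with at least 10 FPKM in the MEF sample and a MASC median of at most 1 FPKM. Their median was 0.866 and 0.423 FPKM in ESC.1 and ESC.2 and 0.0710 and 0.180 FPKM in iPS.1 and iPS.2. At least 10 FPKM was reached by 25 and 12 of them in the ESC lines and by 10 and 8 in the iPS lines. By these measures the iPS lines held no more RNA of this set than the ESC lines did. The set may hold genes of other cells than fibroblasts, since blood markers summed to 48.2 FPKM in the MEF sample. Without overlap and by at least 1, 39 of the 290 were lower in iPS lines and 3 were higher, beside 1.79% and 1.51% of all symbols. The test called 2 of them lower (AF357425 and Mir199a-1) and 1 higher (Mir674), all of them short RNAs treated further on.

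The opposite set held 278 symbols with a MASC median of at least 10 FPKM and at most 1 FPKM in the MEF sample, the genes that must be switched on in a fibroblast to resemble these lines. Their median was 21.8 and 21.3 FPKM in ESC lines and 19.9 and 19.5 FPKM in iPS lines. Of the set, 217 (78.1%) differed by less than 1, a smaller share than the 92.2% of all expressed symbols. At least 10 FPKM was reached by 215 and 235 of them in ESC lines and by 220 and 211 in iPS lines. In this set 19 were higher and 22 lower in iPS lines without overlap and by at least 1, beside 1.51% and 1.79% of all symbols. Called were Snord85 as higher, and Trim71 and 2210039B01Rik as lower. The noncoding RNA 2210039B01Rik (NR_044985) was at 26.8 and 28.8 FPKM in ESC lines and at 9.66 and 8.30 FPKM in iPS lines (difference -1.53, limma adjusted p = 0.0485), with 15.2 to 26.8 FPKM in MASC lines.

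Noncoding RNAs of the Dlk1-Dio3 region were several times lower in iPS than in ESC lines, and only short ones among them passed the test. Meg3 (NR_027652), the long noncoding RNA at the head of the maternal chain, was at 140 and 56.5 FPKM in ESC.1 and ESC.2 and at 5.84 and 6.09 FPKM in iPS.1 and iPS.2. Rian (NR_028261), the host RNA of the box C/D small nucleolar RNAs, was at 75.5 and 51.1 FPKM against 6.89 and 6.83 FPKM. Mirg (NR_028265), the host of a large microRNA cluster, was at 15.7 and 7.77 FPKM against 0.902 and 0.922 FPKM. In all 3 RNAs the iPS lines were close to each other and lay far under the ESC lines, which differed from each other. The mean was 16.5 times lower in iPS lines for Meg3, 9.23 times for Rian and 12.9 times for Mirg. The bounds that Cufflinks set around each value were apart as well, with the Meg3 value of the iPS lines between 5.31 and 6.66 FPKM and that of the lower ESC line between 53.6 and 59.5 FPKM.

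The MASC lines, whose spread enters the test, ran from 0.966 to 68.8 FPKM for Meg3, from 0.519 to 19.9 FPKM for Rian and from 0.0819 to 2.80 FPKM for Mirg. The iPS lines thus lay within the MASC range in all 3, and MASC.1 was the upper end of that range each time. For Rian and Mirg the iPS lines lay above every MASC line except MASC.1. For these 2 RNAs both ESC lines lay above all 8 other lines, while for Meg3 MASC.1 lay above ESC.2. The log2 difference was -3.69 for Meg3 (SE 1.64, limma adjusted p = 0.447), -3.01 for Rian (SE 1.15, limma adjusted p = 0.350) and -2.66 for Mirg (SE 0.60, limma adjusted p = 0.107). The MEF sample held 283, 119 and 15.6 FPKM of them, more than either kind of pluripotent line except for Mirg in ESC.1. The ESC lines also held more RNA of fibroblast markers. Summed over 13 markers it was 422 and 81.0 FPKM in ESC lines and 6.86 and 40.1 FPKM in iPS lines, which is 5.92% and 1.14% against 0.0961% and 0.562% of the MEF sum. The iPS lines differed from each other in this sum and lay close together in Meg3, Rian and Mirg. ESC.1 lay above ESC.2 in the sum and in all 3 RNAs. Of the MASC lines, MASC.1 had the highest sum (1192 FPKM) and the highest values of all 3 RNAs. The part of fibroblast RNA in the Meg3, Rian and Mirg values was not tested.

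Of the protein-coding genes of the region, Rtl1 had both iPS lines below both ESC lines, and Dlk1 and Dio3 did not. Dlk1 (NM_010052), a transmembrane ligand of the Notch type, was at 1.01 and 0.795 FPKM in ESC lines and at 0.0819 and 3.29 FPKM in iPS lines. Dio3 (NM_172119), the deiodinase that inactivates thyroid hormone, was at 0.877 and 5.40 FPKM against 0.631 and 1.48 FPKM. The iPS lines lay on either side of the ESC lines for Dlk1 and overlapped them for Dio3. Rtl1, a retrotransposon-derived gene with an antisense microRNA transcript, was at 1.18 and 0.229 FPKM against 0.0339 and 0.0423 FPKM (difference -0.66, limma adjusted p = 0.290). Reads of Rtl1 and its antisense transcript cannot be told apart here. Dio3os, which runs antisense to Dio3, differed by -0.04.

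The files list 82 transcripts between Dlk1 and Dio3 (mm9 chr12:110691033-111519307), 67 of them under 300 bases. At 0 in all 4 lines were 48. Of the 34 others, both iPS lines were below both ESC lines, by any amount, in 11 and above them in 2. Over all transcripts above 0 in these lines the shares were 23.8% below and 20.1% above, so the count by itself does not set the region apart. Among the short transcripts, 16 were above 0 in an ESC line and listed at 0 in both iPS lines, while 4 were above 0 in an iPS line. Only 6 short transcripts were above 0 in both ESC lines, and some values lay near 0, such as Mir770 at 2.3e-05 FPKM in ESC.2. The same split over all short transcripts was not counted, so it is not read as a trait of the region. Called lower were AF357425, AF357426 and Mir3070b, 3 of the 67 short transcripts, beside 0.488% of all transcripts under 300 bases. These 3 calls rest on few fragments: the lower Cufflinks bound was 0 for each of their ESC values, and the upper bound was 3 times the value, as for a single fragment, for both ESC values of Mir3070b and for ESC.2 of the others. With all iPS lines and all MASC lines at 0, the spread that enters their test is small.

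AF357425 (NR_046302, mm9 chr12:110874222-110874290) and AF357426 (NR_046303, mm9 chr12:110881048-110881114) are box C/D small nucleolar RNAs from introns of Rian, a class of RNA that usually guides the methylation of ribose in other RNAs. Their sequences are shown because they are, with Mir3070b, the RNAs of the region that passed the test. They were read from the mm9 genome on the strand of Rian, with the C box TGATGA and the D box CTGA in capitals.
AF357425: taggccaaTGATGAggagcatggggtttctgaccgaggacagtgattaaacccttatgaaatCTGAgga
AF357426: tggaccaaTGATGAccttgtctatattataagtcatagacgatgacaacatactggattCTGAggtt
AF357425 was at 53.03 and 27.9 FPKM in ESC lines and listed at 0 in both iPS lines and all 6 MASC lines (limma adjusted p = 1.08e-04), with 24.4 FPKM in the MEF sample. AF357426 was at 87.9 and 30.9 FPKM in ESC lines and listed at 0 in both iPS lines, all MASC lines and the MEF sample (limma adjusted p = 0.00116). Both were thus seen in each ESC line and in none of the 8 other pluripotent lines.

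Mir3070b (NR_037231, mm9 chr12:110826802-110826890), a microRNA hairpin between Meg3 and Rian, was at 11.2 and 11.8 FPKM in ESC lines and listed at 0 in iPS and MASC lines (limma adjusted p = 5.85e-11). Its copy Mir3070a, identical to it in 84 of 89 bases, was at 11.2 FPKM in ESC.1 and listed at 0 in ESC.2, and reads that match both would have been left out. Mir3072 was at 71.0 and 59.8 FPKM in ESC lines and listed at 0 in both iPS lines, but reached 26.1 FPKM in a MASC line and did not pass the test (limma adjusted p = 0.158). The mature microRNAs of Mir3070b and Mir3072 are given from RefSeq (GRCm38.p6), with the seed, bases 2 to 8, in capitals. They show what these hairpins encode and that the seeds of Mir3070b and Mir3072 differ. Mir3070a has the same seeds as Mir3070b.
mmu-miR-3070-5p: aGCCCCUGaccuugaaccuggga
mmu-miR-3070-2-3p: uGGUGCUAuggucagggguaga
mmu-miR-3072-5p: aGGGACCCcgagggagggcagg
mmu-miR-3072-3p: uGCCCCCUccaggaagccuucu
The library kit is made for polyadenylated RNA of normal length, so a value for a hairpin or small nucleolar RNA counts fragments over its interval and not the mature small RNA.

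**Figure D2:**
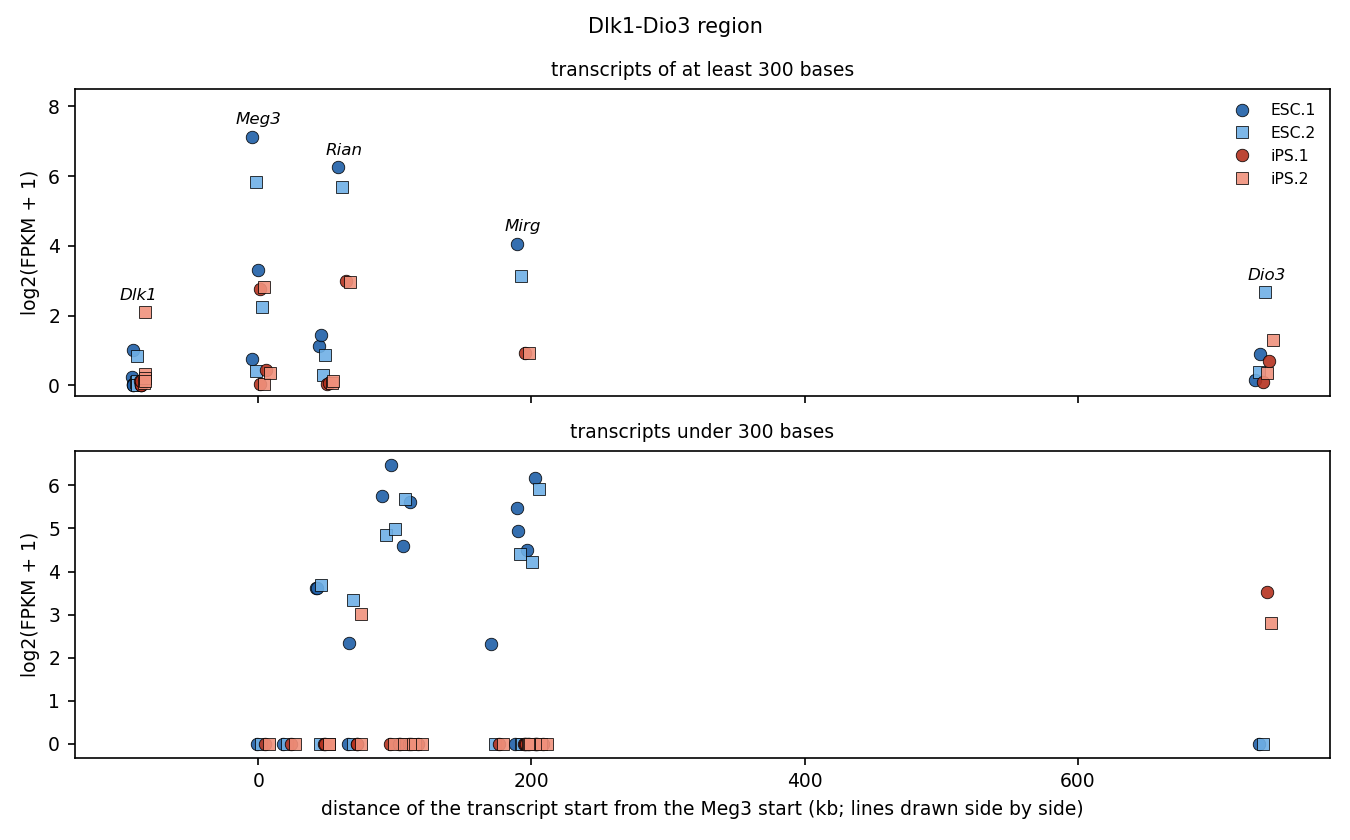
log2(FPKM + 1) of the transcripts of the Dlk1-Dio3 region that were above 0 in an ESC or iPS line, by the distance of their start from that of Meg3 in kilobases, with transcripts of at least 300 bases above and shorter ones below and the 4 lines drawn side by side. Meg3, Rian and Mirg have both iPS points under both ESC points, and Dlk1 has iPS.2 highest. Most short transcripts shown are above 0 in ESC lines only, often in a single ESC line.

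Other imprinted genes gave no call, and the lists of 27 paternally and 22 maternally expressed genes had medians of -0.24 and 0.27 over the 20 and 17 expressed members. Without overlap and by at least 1, 3 of the 27 were higher in iPS lines and 1 lower. Of the 22, 1 was higher and 3 were lower, beside 1.51% and 1.79% of all symbols. Impact, a regulator of the translational stress response read from the paternal copy, was at 38.3 and 39.6 FPKM in ESC lines and at 12.1 and 13.9 FPKM in iPS lines. The iPS lines lay below both ESC lines and below all MASC lines (39.8 to 83.1 FPKM), with a difference of -1.51 (SE 0.38, limma adjusted p = 0.142). Zrsr1, a paternally expressed splicing factor gene, had 9.06 and 7.31 FPKM against 3.16 and 4.41 FPKM (difference -0.95, limma adjusted p = 0.060). Slc38a4, an amino acid transporter, ran the other way with 61.2 and 35.2 FPKM against 80.9 and 140 FPKM (difference 1.18, limma adjusted p = 0.150). Peg3, a zinc finger gene, was at 17.9 and 2.34 FPKM in ESC lines and at 18.9 and 24.0 FPKM in iPS lines, so that ESC.2 alone was low. Peg10 was at 47.3 and 46.6 FPKM against 63.4 and 255 FPKM (difference 1.42, limma adjusted p = 0.383). Cdkn1c was at 1.25 and 6.14 FPKM against 6.51 and 22.3 FPKM (difference 1.72, limma adjusted p = 0.725).

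The lines also differed in sex-linked RNA, in a way that set ESC.1 apart. Eif2s3y, a translation factor gene on the Y chromosome, was at 0.781 FPKM in ESC.1 and at 45.4, 51.3 and 47.1 FPKM in ESC.2, iPS.1 and iPS.2. Ddx3y, an RNA helicase, was at 0.541 FPKM in ESC.1 and at 17.4, 11.02 and 11.8 FPKM in the same 3 lines. Uty, a homologue of the histone demethylase Kdm6a, was at 0.0673 FPKM and at 6.28, 5.63 and 5.21 FPKM. ESC.1 thus held little Y-linked RNA, 1.73 FPKM summed over the Y chromosome against 66.8 to 71.5 FPKM. Low levels were also seen in MASC.2, another Oct4-GFP line. It had 2.00 FPKM of Eif2s3y, 1.47 FPKM of Ddx3y and 0.374 FPKM of Uty. MASC.1, also Oct4-GFP, had 16.5, 4.61 and 1.84 FPKM of them, and the highest MASC line had 50.3, 12.9 and 6.28 FPKM. Transcripts on the X chromosome stood 0.28 above autosomal ones in ESC.1, relative to MASC lines, and 0.05 to 0.07 above them in the 3 other lines. Xist, the RNA that coats an inactive X chromosome, was low in every line, with 1.05 and 0.546 FPKM in ESC lines and 0.0438 and 0.0230 FPKM in iPS lines (difference -0.79, limma adjusted p = 0.583). The difference of Ddx3y and Uty turned negative once ESC.1 was left out, at -0.57 and -0.18. Background, Y-linked RNA and reporter cannot be told apart in ESC.1, the only ESC line that was not 129mix.

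Fibroblast and mesenchymal genes were lower in iPS lines by direction, and none of the list's 33 members passed the test. By their main transcript, 13 of the 33 were lower without overlap and by at least 1 and none were higher, beside 1.79% and 1.51% of all symbols, and the median over the 29 expressed members was -1.86. Dcn (decorin), a proteoglycan of connective tissue, was at 27.4 and 19.5 FPKM in ESC lines and at 0.23 and 0.35 FPKM in iPS lines (difference -4.23, limma adjusted p = 0.232). Tnc (tenascin C), a matrix glycoprotein, was at 51.4 and 28.6 FPKM against 0.0897 and 1.57 FPKM. Col3a1, a fibrillar collagen, was at 119 and 10.5 FPKM against 0.409 and 1.45 FPKM. For these genes the iPS lines were lowest, and ESC.1 was far above ESC.2 for the collagen.

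Of the 13 fibroblast markers, 11 had both iPS lines below both ESC lines by any amount, which 23.8% of all transcripts above 0 did. Col1a2 did not, with 137 and 15.6 FPKM in ESC lines and 1.45 and 25.1 FPKM in iPS lines, and neither did Pdgfrb. The limma adjusted p of the markers ran from 0.232 to 1. Their sum in MASC lines ran from 25.5 to 1192 FPKM, which covers ESC.1, ESC.2 and iPS.2. In bulk RNA, fewer cells of a type and less RNA per cell cannot be told apart, and all lines grew on fibroblast feeders. The part of feeder RNA in the matrix genes was not tested. Markers of blood and primitive endoderm summed to at most 3.73 FPKM in all 4 lines, germ cell markers to between 9.35 and 24.0 FPKM, and pluripotent markers to between 4474 and 6853 FPKM, beside 6.14 FPKM of the latter in the MEF sample.

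**Figure D3:**
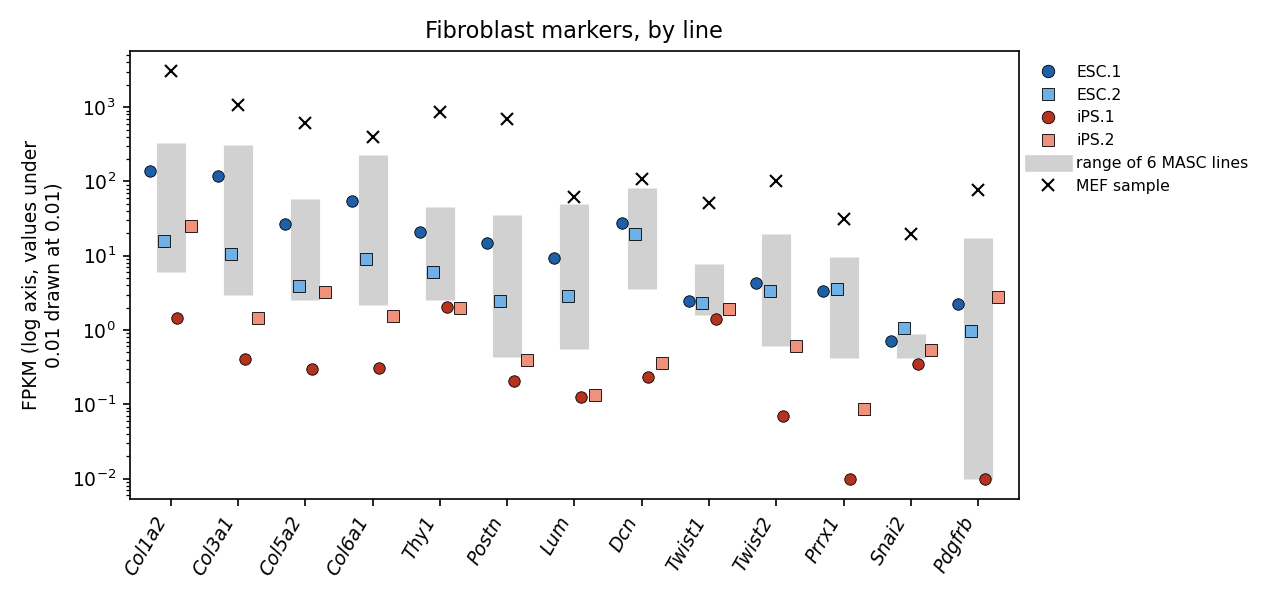
FPKM of the 13 fibroblast markers on a log axis, with 1 point per ESC and iPS line, a grey bar for the range of the 6 MASC lines and a cross for the MEF sample. The MEF sample is highest for each marker, both iPS points lie under both ESC points for 11 markers, and iPS.2 is above ESC.2 for Col1a2.

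Among the 74 called transcripts, 24 were the only transcript of their gene and at least 300 bases long, which makes them the calls easiest to read. They were 12 higher, by 1.01 to 2.64, and 12 lower, by -1.63 to -1.06. Both iPS lines lay beyond all 8 ESC and MASC lines in 67 of the 74 calls, and in 17.3% of all transcripts, called or not. Both ESC lines lay beyond the 8 other lines in 17 of the calls. The call itself requires iPS lines beyond ESC lines and selects for tight groups. The 17.3% is therefore not a like measure, and the 67 and 17 are a description. Calls were kept to differing degrees over 22 alternative settings: that of Dynll2 in 20 and those of Setd1b and Mafg in 18, but those of Eif4a2, Lgals3 and Kdm2b in 8, those of Il17d and Tmem106c in 7, that of Gm14288 in 6 and that of 2210039B01Rik in 5.

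Among the lower ones was Setd1b, the catalytic subunit of a histone H3K4 methyltransferase complex, at 8.36 and 8.87 FPKM in ESC lines and at 2.04 and 2.61 FPKM in iPS lines (difference -1.54, SE 0.17, limma adjusted p = 0.0117). All MASC lines (7.54 to 10.5 FPKM) stood at the ESC level. Apex2, a nuclease of base excision repair on the X chromosome, was at 11.7 and 10.6 FPKM against 3.08 and 3.81 FPKM (difference -1.45, limma adjusted p = 0.0176). Il17d, a cytokine of the interleukin-17 family, was at 9.56 and 6.48 FPKM against 1.98 and 1.78 FPKM (difference -1.63, limma adjusted p = 0.0464). Scrn1 (secernin) was at 7.72 and 10.4 FPKM against 2.42 and 3.42 FPKM (difference -1.36, limma adjusted p = 0.0228).

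Further genes with 1 transcript lay outside the rule for named genes and were chosen after their values were seen. Mafg, a small Maf protein that partners the stress factor Nrf2, was at 33.3 and 31.4 FPKM in ESC lines and at 13.53 and 14.5 FPKM in iPS lines (difference -1.15, limma adjusted p = 0.00268). Sf3b4, a subunit of the U2 spliceosomal particle, was at 114 and 136 FPKM against 57.3 and 59.4 FPKM. Sohlh2, a transcription factor of early germ cells, was at 17.4 and 12.3 FPKM against 5.93 and 4.99 FPKM (difference -1.28, limma adjusted p = 0.0168). MASC lines had 5.83 to 7.00 FPKM of Sohlh2, the level of the iPS lines, whereas for Mafg (28.3 to 35.3 FPKM) and Sf3b4 (127 to 165 FPKM) they stood with the ESC lines. Gpatch3, Dus3l and Mettl17 were called lower too.

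Of the genes higher in iPS lines, the noncoding RNA 2310034O05Rik (NR_040679) had the largest difference of this group. It was listed at 0 in both ESC lines and 5 of 6 MASC lines, and was at 5.91 and 4.59 FPKM in iPS lines (fitted difference 2.64, limma adjusted p = 9.36e-06). Gm14288, a predicted gene, was at 2.23 and 3.47 FPKM in ESC lines and at 9.55 and 9.80 FPKM in iPS lines (difference 1.49, limma adjusted p = 0.0404). Outside that rule, Cryz, a quinone reductase, was at 9.06 and 8.43 FPKM against 19.2 and 21.9 FPKM (difference 1.14, limma adjusted p = 0.0313). Stx7, a syntaxin of late endosomes, was at 9.04 and 8.93 FPKM against 16.2 and 24.4 FPKM. Myl7, the atrial myosin light chain, was at 2.02 and 2.31 FPKM against 7.84 and 6.08 FPKM. Ccdc68, a coiled-coil protein gene, was at 0.3298 and 0.312 FPKM against 3.12 and 6.33 FPKM. Mag, a myelin glycoprotein, was at 0.0981 and 0.0619 FPKM against 1.25 and 1.10 FPKM, and Cntd1, a gene of meiotic crossing-over, at 0.819 and 0.442 FPKM against 4.98 and 4.39 FPKM.

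Of the 74 calls, 40 fell on 1 of several transcripts of a gene, and in none of these did the gene's summed FPKM pass the same test. The summed FPKM differed by less than 0.5 in 20 of the 40 and by at least 1 in the same direction in 10. Eif4a2 (NM_013506), a helicase of translation initiation, was at 2.5e-04 and 6.0e-04 FPKM in ESC lines and at 101 and 93.3 FPKM in iPS lines (difference 6.62, SE 1.08, limma adjusted p = 0.0461), which made up 36.8% and 34.3% of the gene's FPKM there. The summed Eif4a2 FPKM was 170 and 184 in ESC lines and 275 and 272 in iPS lines (difference 0.62, limma adjusted p = 0.140). In this gene the other 3 transcripts stayed at like levels and the called one came on top.

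Rtn4 (reticulon 4, the Nogo gene) showed an exchange between transcripts. NM_194051 was at 0.370 and 0.124 FPKM in ESC lines and at 18.4 and 16.0 FPKM in iPS lines (difference 3.87, SE 0.33, limma adjusted p = 0.00413). NM_194052 ran the other way, with 23.5 and 28.3 FPKM against 6.89 and 12.3 FPKM (limma adjusted p = 0.0527). The gene's sum was 61.0 and 70.7 FPKM in ESC lines and 47.1 and 60.0 FPKM in iPS lines. This sum was slightly lower in iPS lines (difference -0.30, limma adjusted p = 0.485) although the called transcript was higher.

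Dynll2, a dynein light chain gene, had its transcript NM_001168471 near 0 in ESC lines and at 13.7 and 17.7 FPKM in iPS lines (difference 4.05, SE 0.20, limma adjusted p = 2.3e-04), 19.5% and 21.9% of the gene's FPKM. Its sum was 68.3 and 54.2 FPKM against 70.4 and 81.2 FPKM. Rpl19, a ribosomal protein gene, had NM_001159483 at 130 and 137 FPKM in ESC lines and at 585 and 581 FPKM in iPS lines (difference 2.12, SE 0.14, limma adjusted p = 0.00119), and its share of the gene went from 5.41% and 7.30% to 22.2% and 25.6%. Zfp57, a zinc finger protein that protects methylation at imprinted regions, had NM_001168501 at 4.88 and 2.34 FPKM against 17.9 and 18.2 FPKM (difference 2.10, limma adjusted p = 0.0120). All Zfp57 transcripts together were at 96.9 and 211 FPKM in ESC lines and at 166 and 180 FPKM in iPS lines, so the gene as a whole overlapped between the groups.

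**Figure D4:**
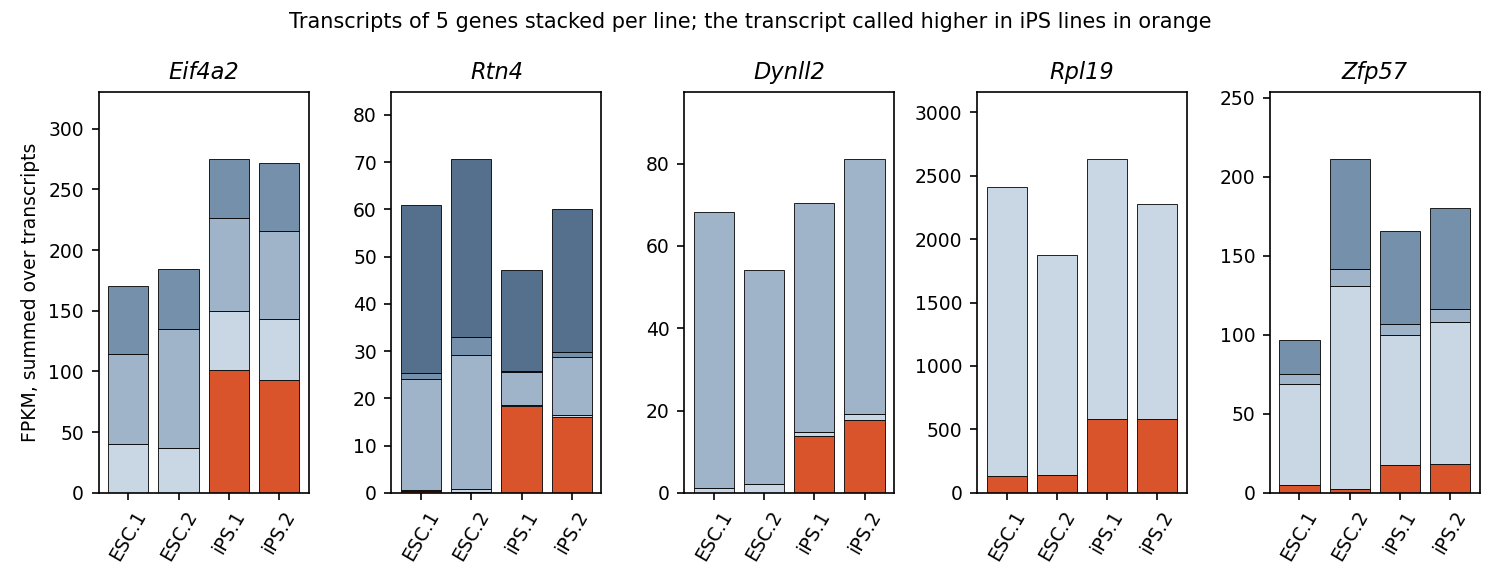
FPKM of the transcripts of Eif4a2, Rtn4, Dynll2, Rpl19 and Zfp57 stacked for each ESC and iPS line on linear axes from 0, with the transcript called higher in iPS lines in orange. The orange part is nearly absent or thin in both ESC lines and wide in both iPS lines, while the mean total differs between the groups by 0.62 or less on the log2 scale.

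The remaining named transcripts of this kind were given by 1 value each. Higher in iPS lines were transcripts of Sct (secretin, NR_105048; difference 3.31), Oxr1 (oxidation resistance, NM_001130163; 2.79), Ube2t (a ubiquitin-conjugating enzyme, NM_001278115; 1.65), Rpl22 (NM_001277113; 1.49) and Tmem106c (NM_001252153; 1.48). Lower were transcripts of D130020L05Rik (NR_038049; -2.83), 0610010K14Rik (NM_001177606; -2.44), Lox (lysyl oxidase, NM_001286182; -2.38), Lgals3 (galectin 3, NM_001145953; -1.97), Kdm2b (a histone demethylase, NM_001005866; -1.58), Eif5a (NM_001166590; -1.47) and Snx12 (NM_018875; -1.38). Lox and Lgals3 were also low as sums in iPS lines, Lox at 24.4 and 9.83 FPKM against 0.293 and 1.51 FPKM, while Eif5a as a sum was at 998 and 1067 FPKM against 979 and 882 FPKM. Lox and Lgals3 were abundant in the MEF sample, at 236 and 122 FPKM of the called transcripts. Like most fibroblast markers, they were lower in iPS lines. The marker sums of ESC.1 and ESC.2 were 422 and 81.0 FPKM. In these 2 lines the called transcripts were at 4.73 and 5.30 FPKM for Lox and at 16.5 and 20.6 FPKM for Lgals3. Summed over transcripts, Lox was at 24.4 and 9.83 FPKM there and Lgals3 at 42.5 and 54.8 FPKM. The part of fibroblast RNA in these values was not tested.

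How reads that fit several transcripts are divided is an estimate of Cufflinks, so a call on 1 transcript depends on that division. In all 64 called transcripts of at least 300 bases the bounds that Cufflinks gave were apart between the groups. Of the transcripts called higher, 11 had both ESC lines under 0.001 FPKM, and of those called lower, 5 had both iPS lines there. For these the fitted difference depends on the pseudocount.

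The 10 called transcripts under 300 bases rested on few fragments. In 13 of their 22 values above 0.001 FPKM the upper Cufflinks bound was 3 times the value and the lower bound 0, which is what bounds of 2 Poisson standard deviations give for a single fragment. Mir199a-1, a microRNA hairpin in an intron of Dnm2 on the other strand, was at 25.2 and 26.6 FPKM in ESC lines and listed at 0 in iPS and MASC lines (limma adjusted p = 2.17e-11). Mir8112, which lies in an exon of Krcc1, was at 50.0 and 73.3 FPKM against 19.3 and 19.7 FPKM (difference -1.59, limma adjusted p = 0.0256), and its bounds overlapped between the groups. Krcc1 itself (NM_145568) ran the other way, with 7.81 and 15.9 FPKM in ESC lines and 18.0 and 23.2 FPKM in iPS lines (limma adjusted p = 0.780). Mir8104, in an exon of Ppm1h, was at 6.79 and 4.59 FPKM in ESC lines and near 0 in iPS lines.

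Higher in iPS lines were Snord85, a small nucleolar RNA, listed at 0 in ESC lines and at 23.03 and 26.5 FPKM in iPS lines, and Mir568, Mir674 and Mir7666, all listed at 0 in ESC lines. MASC lines held 35.4 to 146 FPKM of Snord85, so here ESC lines were the ones apart. Mir568 was at 10.1 and 11.6 FPKM, Mir674 at 5.37 and 6.17 FPKM and Mir7666 at 41.2 and 94.7 FPKM in iPS lines, and all were listed at 0 in MASC lines. Mir674 was also present in the MEF sample, at 13.9 FPKM.

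Over all 31 gene lists, Trim71 was the only member called by its main transcript, and the other lists are described by their medians and by the members that did not overlap. Hypoxia and glycolysis genes had the most members higher in iPS lines, 9 of 26 without overlap and by at least 1 (beside 1.51% of all symbols), with a list median of 0.81. Bnip3, a mitophagy receptor induced at low oxygen, was at 43.4 and 13.2 FPKM in ESC lines and at 140 and 97.3 FPKM in iPS lines (difference 2.23, SE 0.87, limma adjusted p = 0.361). Slc2a3, a glucose transporter, was at 274 and 102 FPKM against 352 and 554 FPKM. Egln3, an oxygen-sensing prolyl hydroxylase, was at 11.9 and 1.60 FPKM against 24.2 and 12.9 FPKM. ESC.2 was the lowest of the 4 lines in all 3 genes.

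Trophoblast genes had 7 of 20 members higher without overlap and by at least 1 (beside 1.51% of all symbols) and a median of 1.35 over the 14 expressed, and here iPS.2 stood apart. Krt7, a keratin of simple epithelia, was at 2.95 and 1.94 FPKM in ESC lines, 10.9 FPKM in iPS.1 and 79.6 FPKM in iPS.2. Hand1, a transcription factor of trophoblast giant cells, was at 0.540 and 0.853 FPKM, 1.98 FPKM and 12.5 FPKM. Krt8 and Krt18, the keratin pair of the first epithelia, were at 39.1 and 46.6 FPKM in iPS.1 and at 487 and 543 FPKM in iPS.2, against 22.8 to 31.3 FPKM in ESC lines. MASC lines ran from 104 to 339 FPKM of Krt8. None of these genes passed limma's test, with an adjusted p of 0.298 for Krt7 and 0.417 for Krt18.

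By the same measure, which 1.51% of all symbols met upwards and 1.79% downwards, epithelial adhesion genes had 5 of 21 members higher and a median of 0.40, and collagen and matrix genes had 8 of 27 lower and 2 higher with a median of -0.26. Interferon and MHC class I genes had 2 of 24 higher, among them Ifitm1, an interferon-induced membrane protein, at 46.0 and 25.6 FPKM against 299 and 97.7 FPKM (limma adjusted p = 0.369). Germline genes had 3 of 32 lower, FGF-MAPK feedback genes 3 of 25 lower, and amino acid stress genes 2 of 22 lower. Genes of the 2-cell-like state, cholesterol synthesis genes, Wnt targets, Polycomb genes, DNA methylation enzymes and Hox genes had no member that differed in this way. Zscan4c, which marks a passing state of ESC that resembles the embryo after its first cleavage, was at 4.64 and 19.7 FPKM in ESC lines and at 3.66 and 17.5 FPKM in iPS lines. Tdg, a DNA glycosylase that removes oxidised methylcytosine, passed the adjusted p with 11.4 and 9.08 FPKM against 4.65 and 4.58 FPKM (limma adjusted p = 0.0432), but its difference of -0.99 lay just under the limit of 1.

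**Figure D5:**
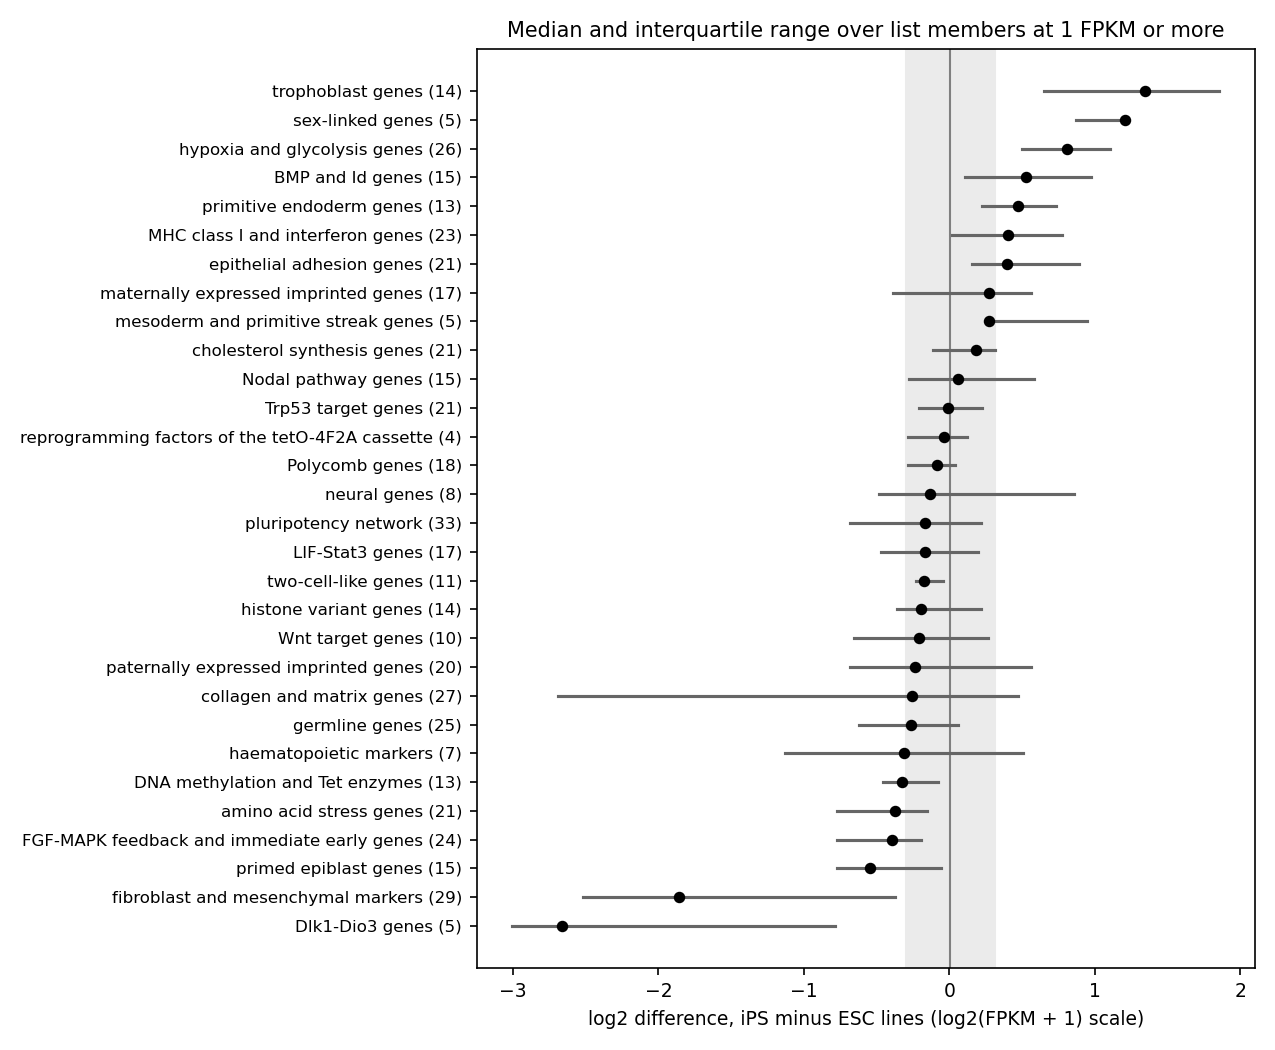
Median (point) and interquartile range (line) of the log2 difference between iPS and ESC lines over the members of each gene list with a mean of at least 1 FPKM, with the number of such members in brackets; the grey band and line are the same over all symbols. Dlk1-Dio3 genes (median -2.66) and fibroblast markers (-1.86) lie farthest to the left and trophoblast genes (1.35) farthest to the right, and most other medians lie within the band of -0.30 to 0.32.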

How the data were processed

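Total RNA was prepared with an Illumina TruSeq RNA kit and sequenced on a HiSeq instrument. The authors deposited 1 Cufflinks table per sample with FPKM values (TopHat2 2.0.11, mm9; duplicate reads and reads mapping to more than 1 place excluded; upper-quartile and GC normalization; Cufflinks version not given in the sources used here). The deposited tables also hold confidence bounds of each FPKM and a coverage signal in reads per base. Reads shared by transcripts of a gene were divided by Cufflinks, and values of RNAs shorter than a fragment are unstable. The files hold no counts, so no count test was used.

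Of 33262 rows, 601 further loci of a transcript were left out. Groups came from the sample labels. Values were taken as log2(FPKM + 1), a pseudocount of 1, with no filter. limma 3.58.1 in R 4.3.3 (lmFit, eBayes) was fitted over 10 lines (2 ESC, 2 iPS, 6 MASC) without covariates, and p-values were adjusted by Benjamini and Hochberg over 32661 transcripts. The procedure was tested on simulated data. Named were the 12 transcripts per direction with the largest difference among calls of at least 300 bases and a mean of at least 5 FPKM in the higher group, called list members, and all reprogramming, Dlk1-Dio3 and sex-linked genes with 9 pluripotency factors. The members and the 31 gene lists were chosen with earlier results of these data known. Of 652 list entries, 648 matched; Dub1, Dub2a, Pkm2 and Sc4mol did not. The pseudocount, a low filter, length, normalization, strain, pairing, the samples fitted and each left-out line were varied.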

Additional observations from a re-analysis of the deposited data

Results flagged for a closer look

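For 8 of the 51 named genes, 1 of the 6 MASC lines that entered the fit stood apart from the other 5 by Dixon's 95% limit. Chance flags about 1 group in 20. The line farthest out was the highest for Eif4a2 NM_013506 (8.63 FPKM), Rtn4 NM_194051 (1.19 FPKM), Oxr1 NM_001130163 (1.54 FPKM), 2310034O05Rik (0.0120 FPKM), Mirg (2.80 FPKM) and Xist (2.20 FPKM). It was the lowest for Tmem106c NM_001252153 (4.41 FPKM) and Scrn1 (6.04 FPKM). For the 4 called transcripts among those with a high line, that line still lay below both iPS lines.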

How the results depend on the processing

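The counts of calls depended on the fit. With 37 transcripts called higher and 37 lower as reported, a pseudocount of 0.1 gave 83 and 77, a filter for at least 1 FPKM in 2 lines 22 higher, a fit over the 4 lines alone 3 and 9, a fit over all 17 samples 18 and 20, the 129mix lines only 69 and 153, strain as a term 123 and 126, and FPKM summed per symbol, added after the data were seen, 19 and 21. Leaving out 1 line gave 20 to 79 higher and 19 to 64 lower: 79 higher without iPS.1, 22 higher and 63 lower without ESC.2, 64 lower without ESC.1, 59 lower without MASC.1, 20 higher and 22 lower without MASC.5, 20 lower without MASC.3, 23 lower without MASC.4 and 19 lower without iPS.2. Of the 74 calls, 59 remained with a pseudocount of 0.1, 59 with strain as a term, 67 with quantile normalization, 48 of 73 with the low filter, 27 with all samples, 19 in the 129mix lines, 3 in the 4 lines alone, 2 with the replicate block and 29 to 62 without 1 line. The 1207 transcripts without overlap became 3526 with a pseudocount of 0.1. The cause of these shifts was not tested. With the replicate number as a block, 2 transcripts were called higher and 3 lower, but the labels tie no lines together and same-numbered lines did not deviate together (r = -0.0707 over 17100 transcripts), so the numbers do not pair the samples.

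Genes without a call could change direction. Klf4 was at 0.61 in the 129mix lines and 0.57 with strain as a term, Tbx3 at 0.25 and 0.47, Ddx3y and Uty at -0.57 and -0.18 in the 129mix lines, Dlk1 at -0.34 with a pseudocount of 0.1, Pou5f1 at -0.017 after quantile normalization and the sum of Rtn4 at -0.30. Leaving out 1 line moved Pou5f1 from -0.11 to 0.30, Sox2 from -0.019 to 0.45 and Klf4 from -0.95 to 0.61. It moved Myc from -1.67 to 0.39, Dlk1 from -0.81 to 1.18, Dio3 from -1.67 to 0.10 and Dio3os from -0.16 to 0.092. It also moved Ddx3y from -0.57 to 3.01, Uty from -0.18 to 2.59 and Usp9y from -0.16 to 0.071. Esrrb moved from -0.091 to 0.16 in this way and Tbx3 from -0.49 to 0.25. Low values and short RNAs rest on few fragments, and differences under 1 FPKM were not read as changes.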
